A study of Mus musculus with 2 samples.

Results

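The IGHV1 genes, also called the J558 family, form the largest family of heavy-chain variable genes in the mouse. The genes described here are all those whose name starts with IGHV1-, other than the 7 genes IGHV1-9, IGHV1-12, IGHV1-26, IGHV1-64, IGHV1-72, IGHV1-80 and IGHV1-82. By this rule 41 of the 95 IGHV genes found in the libraries were members, and they were used by 1246 of 3294 cells in one library and by 1003 of 2947 cells in the other. They are the IGHV1 genes left after 7 were set apart with results of these data known, some of them for frequent use or for switched lineages.

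The cells came from Peyer's patches, which are lymphoid tissue in the wall of the small intestine, and had been enriched on magnetic beads for the white blood cell protein CD45. Both groups carried floxed alleles of the gene for the beta chain of MHC class II (H2-Ab1 fl/fl), and the Cre+ group also carried Villin:Cre, a recombinase driven by a promoter of intestinal epithelial cells. The Cre- group lacked the recombinase. Each group was a pool of 4 adult female mice and gave 1 library, so the difference between mice was not measured and no test was made. The genotypes are those of the sample labels; the series text gives both groups the genotype without Cre. Only receptor transcripts were analysed here, so neither the deletion of H2-Ab1 nor the markers of B cells could be checked. The study compared receptors of mice without MHC class II on the gut epithelium with those of controls.

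An antibody heavy chain is made by joining a V, a D and a J segment, and the joint forms the CDR3, the loop that contributes most to the variety of antigen binding. The IGHV1 genes fill much of the part of the locus that lies far from the D segments, and V genes there come to the D segments by contraction of the locus. The new chain is first made with the IgM and IgD constant regions. In Peyer's patches, activated B cells may then switch to IgA or IgG and mutate their V regions.

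The libraries were of like depth. The Cre+ library held 3748 barcodes and 355258 unique molecular identifiers (UMIs, each the tag of a captured transcript), and the Cre- library held 3245 barcodes and 355985 UMIs. A cell is a barcode with exactly 1 productive heavy-chain CDR3; barcodes with more, 145 and 83, were left out, and no other doublet caller was run. The libraries had 8 barcodes in common among these cells, in 0 of which both cells used a member gene and 0 of which had the same CDR3. A single lineage of IGHV4-1, which is no member, made up 417 of the Cre- cells, whereas the largest Cre+ lineage, of IGHV5-17, held 64. Shares of all cells are therefore given with and without these lineages. All intervals are exact 95% Clopper-Pearson intervals, and they cover counting error only; where a count was 0, the limit of 3 cells of the total is given with the exact upper bound. The interval of a difference is combined from those of both shares.

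The sequences that the members leave in the CDR3 are shown first, since they tell which genes can be told apart by them. The end of the V segment encodes the start of the CDR3, and the most common first 9 nucleotides were read for each gene from its unswitched cells (IgM or IgD). Of 26 members with 20 or more unswitched cells, 23 had the same start. The remaining 3 differed by 1 base each, shown in capitals, with positions counted from 1 at the 5′ end of the CDR3.
common start of 23 genes: tgtgcaaga
IGHV1-5: tgtAcaaga
IGHV1-15: tgtAcaaga
IGHV1-74: tgtgcaaTa
IGHV1-5 and IGHV1-15 carried G4A, which turns a codon for alanine into 1 for threonine. IGHV1-74 carried G8T, which turns a codon for arginine into 1 for isoleucine. Over all 61 IGHV genes with 20 or more unswitched cells, 39 had the common start, among them all of the 7 other IGHV1 genes.

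IGHV1-62-2 and IGHV1-71 shared a longer CDR3 start that was rare in the other members. IGHV1-62-2 is among the genes of high switched share described below, and IGHV1-71 was chosen after its values were seen. The next codon of both was most often cac, shown in capitals.
IGHV1-62-2 and IGHV1-71: tgtgcaagaCAC
This start was found in 29 of 31 unswitched cells of IGHV1-62-2 (93.5%, interval 78.6 to 99.2), of which 10 came from the Cre+ and 19 from the Cre- library. In IGHV1-71 it was found in 39 of 44 (88.6%, 75.4 to 96.2), 25 from the Cre+ and 14 from the Cre- library. In the other 39 members it was found in 9 of 1967 unswitched cells (0.458%, 0.209 to 0.867). The same codon was followed by gaa in 22 cells of IGHV1-62-2, in 32 of IGHV1-71 and in 0 of the other members' cells. In both genes the median CDR3 was 16 amino acids long, against 14 over the 26 members. No V region sequence was used here, so whether some cells of these genes were assigned to each other was not tested.

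The start was intact in most unswitched cells, with a median over the 26 members of 78.2% and a median over the 61 IGHV genes of 78.9%. It was intact in 31 of 31 cells of IGHV1-62-2 (88.8 to 100%) and, among genes chosen after their values were seen, in 33 of 33 of IGHV1-58 (89.4 to 100%). IGHV1-18 kept it in 115 of 127 cells (90.6%, 84.1 to 95.02). The lowest shares were those of IGHV1-5, with 23 of 45 (51.1%, 35.8 to 66.3), and IGHV1-74, with 47 of 78 (60.3%, 48.5 to 71.2). By library, 14 of 29 Cre+ and 9 of 16 Cre- cells were intact for IGHV1-5, and 21 of 42 and 26 of 36 for IGHV1-74. IGHV1-15, which shares the start of IGHV1-5, kept it in 45 of 60 Cre+ and 31 of 42 Cre- cells (74.5% of both, 64.9 to 82.6).

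Member genes accounted for 37.8% of all Cre+ cells (36.2 to 39.5) against 34.0% in the Cre- library (32.3 to 35.8), a difference of 3.79 percentage points (1.38 to 6.19). Once each library's largest lineage was left out the order turned, to 38.6% of Cre+ and 39.6% of Cre- cells and a difference of -1.07 points (-3.63 to 1.49). Unswitched cells used them at 39.2% and 39.8%, a difference of -0.583 points (-3.30 to 2.13). The higher share of the members in the Cre+ library was thus not found once the IGHV4-1 lineage was out of the Cre- total. The 7 other IGHV1 genes were used by 24.1% and 19.5% of all cells, and by 24.6% and 22.7% without the largest lineages.

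Cells were spread over many members. IGHV1-55 led, with 81 Cre+ and 76 Cre- cells, followed by IGHV1-53 with 75 in each library. The tenth place was shared by IGHV1-22 and IGHV1-39, with 87 cells each, and IGHV1-22, which comes first in number, was taken. The 10 most used genes of each library held 52.8% of the member cells for Cre+ mice and 55.03% for Cre- mice, and 24 genes held 90% in each. The effective number of genes, the exponential of the Shannon entropy, was 28.8 and 27.5.

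As shares of all cells, the levels of the leading genes had Cre+ over Cre- ratios from 0.797 (IGHV1-22) to 1.39 (IGHV1-50). The Cre- total holds the large IGHV4-1 lineage, which lowers the Cre- shares. IGHV1-55 stood at 2.46% in the Cre+ library (1.96 to 3.05) against 2.58% in the Cre- library (2.04 to 3.22). IGHV1-53 stood at 2.28% (1.795 to 2.85) and 2.54% (2.01 to 3.18). IGHV1-18 had 78 and 56 cells, or 2.37% (1.88 to 2.95) and 1.90% (1.44 to 2.46). The intervals of these genes overlapped between the libraries, and they also overlapped between neighbours in the order of levels.

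IGHV1-69 had 69 and 59 cells, at 2.09% and 2.002%, and IGHV1-81 had 68 and 56, at 2.06% and 1.90%. IGHV1-52 had 62 and 55 cells, at 1.88% and 1.87%. IGHV1-15, with 60 and 46 cells, stood at 1.82% (1.39 to 2.34) and 1.56% (1.14 to 2.08). The 3 least used of the leading genes were IGHV1-50 (62 and 40 cells), IGHV1-76 (49 and 43) and IGHV1-22 (41 and 46), and of these only IGHV1-22 had more cells in the smaller Cre- library.

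At the other end, 14 members had under 20 cells over both libraries. IGHV1-37 was seen in 1 cell of each library. IGHV1-11 was seen in 3 Cre+ cells and IGHV1-62-3 in 2; both were at 0 in the Cre- library, which allows a share of up to 0.102% (exact bound 0.125%). These 3 genes were chosen after their values were seen.

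**Figure D1:**
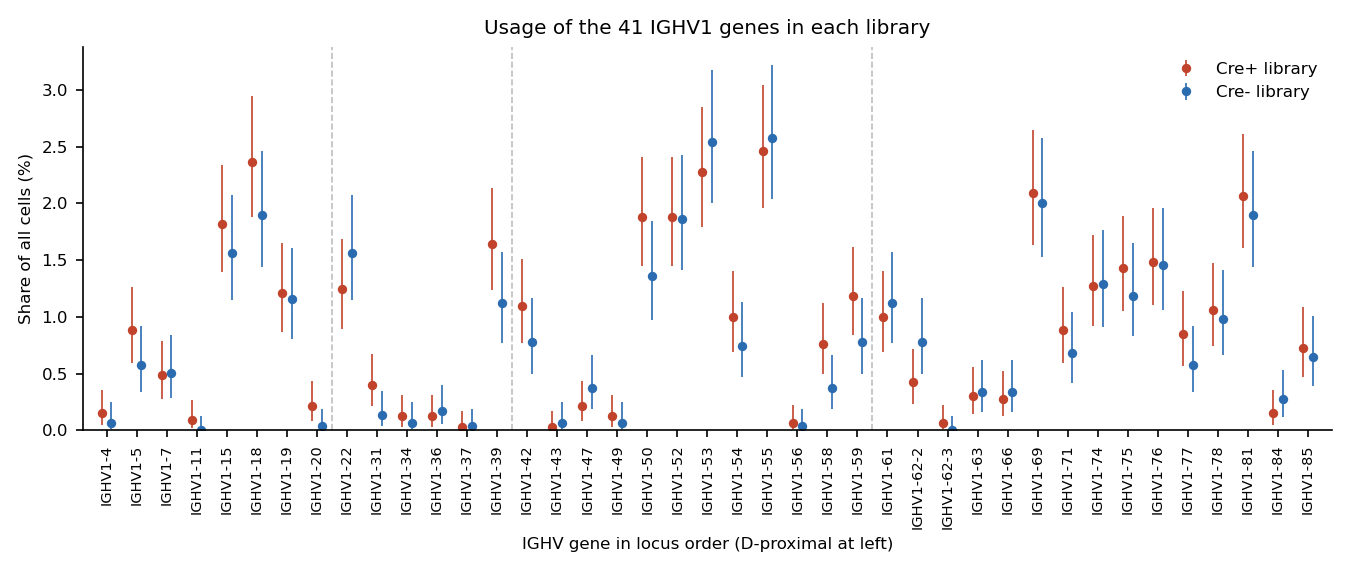
Share of all cells (%) that used each of the 41 genes, in locus order with the D-proximal end at left, in the Cre+ (red) and Cre- (blue) library; bars are exact 95% intervals and dashed lines part gene numbers 1 to 20, 21 to 40, 41 to 60 and 61 up. The libraries trace the same pattern, with IGHV1-55 at 2.46% and 2.58%, and rarely used genes lie between often used ones.

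None of the members differed in usage between the libraries by the rule applied, which asked for 20 or more cells over both, shares at least 1.5-fold apart in either direction, and intervals that do not touch. The count was 0 of 27, beside 4 of 64 over all IGHV genes (6.25%). It was also 0 of 27 without the largest lineages, beside 1 of 64 (1.56%), and 0 of 26 in unswitched cells, beside 0 of 61 (0%). With cells of all IGHV1 genes as the total, an alternative added after the data were seen, it was 0 of 27, beside 2 of 34 IGHV1 genes (5.88%). Over all cells, IGHV1-9 and IGHV1-12 were among the 4 genes past the rule, and both belong to the 7 left out. Those 7 were set apart with results of these data known, so a count of 0 for the members is a description. The ratio alone was passed by 4 of the 27, namely IGHV1-5, IGHV1-58, IGHV1-59 and IGHV1-62-2, beside 15 of 64 over all genes (23.4%). IGHV1-58 had 25 Cre+ and 11 Cre- cells, a ratio of 2.03, with intervals of 0.492 to 1.12% and 0.187 to 0.667%. IGHV1-62-2 had 14 and 23 cells, a ratio of 0.545, with intervals of 0.233 to 0.712% and 0.495 to 1.17%. The median ratio was 1.09 over the members and 1.14 over all genes, and it was 0.951 and 0.9998 without the largest lineages. Without these lineages 2 of the 27 passed the ratio, beside 12 of 64 (18.8%). In unswitched cells it was passed by 3 of 26, beside 9 of 61 (14.8%), and over cells of IGHV1 genes by 2 of 27, beside 5 of 34 (14.7%). Between the libraries, the shares of the 41 genes had Pearson's r at 0.960 and Spearman's rho at 0.966, which describes genes of the same libraries and is no test.

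Gene numbers rise with distance from the D segments. The order of the members by number was that of their start positions on chromosome 12 of GRCm38 (Spearman rho of 1 over 41 genes). The first, Ighv1-4, lies at 114487136 to 114487429 and the last, Ighv1-85, at 116000028 to 116000321. IGHV1-4 was thinly used, by 5 Cre+ and 2 Cre- cells. IGHV1-85 had 24 and 19, near the medians of 29 and 20 cells over the members.

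Usage rose and fell several times along the locus. The order of the genes and their share of cells had a Spearman rho of 0.156 for Cre+ and 0.217 for Cre- cells, as a description over 41 genes. Gene numbers 21 to 40 held the fewest member cells, with 9.39% of Cre+ and 9.07% of Cre- ones over 6 genes. Numbers 1 to 20 held 19.1% and 17.0% over 8 genes, numbers 41 to 60 held 34.3% and 34.0% over 12 genes, and numbers from 61 up held 37.2% and 39.9% over 15 genes. For each stretch the interval of the difference between libraries included 0. The largest such difference was that of numbers from 61 up, at -2.64 points (-6.75 to 1.46).

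The mean number of cells per gene was 35.6 Cre+ and 28.4 Cre- in numbers 41 to 60 and 30.9 and 26.7 from 61 up, while the medians were 34.5 and 22.5 against 29 and 23. From 61 up, genes among the 7 left out held a further 409 and 348 cells, and there were 0 such cells in numbers 41 to 60. These levels also depend on where the stretches are parted. Numbers 21 to 40 had the lowest means, at 19.5 and 15.2. This stretch consists of IGHV1-22 and IGHV1-39, with 87 cells each over both libraries, and of 4 genes with under 20. IGHV1-26, among the 7 genes left out, also lies in this stretch and had a further 218 and 151 cells. That is more than the 117 and 91 cells of the members there, so the low means hold for the members only. In numbers 1 to 20 the genes left out held a further 168 and 76 cells. Neighbours on the chromosome could differ widely. IGHV1-55, the most used member, at 115208137 to 115208527, is followed in number by IGHV1-56, at 115242802 to 115243095, which was seen in 3 cells and was chosen after its values were seen.

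A RefSeq table of GRCm38.p6 lists 85 IGHV1 names outside the 7, and 44 of them were seen in 0 cells. A productive contig of 1 of the 44 was found in a barcode that was left out. Of the 44, 32 are annotated as pseudogenes and 12 as V segments. The 41 members were all annotated as V segments. Of the 12, 3 were found in contigs not flagged productive, which are either flagged as not productive (as by a frame shift or a stop codon) or given no call. These genes, chosen after their values were seen, were IGHV1-67 with 13 such contigs (6 Cre+ and 7 Cre-), IGHV1-23 with 10 (5 and 5) and IGHV1-62-1 with 3, all from the Cre+ library. Of these contigs 7, 4 and 0 were flagged as not productive, and the others had no call.

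The members had 167 contigs not flagged productive, of which 89 were flagged as not productive and 78 had no call. They made up 6.91% of these and the productive cells together (5.93 to 7.998), and 94 came from Cre+ and 73 from Cre- mice. With the 3 names above, the share was 7.90% (6.86 to 9.05), and it was 3.79% for the 7 other IGHV1 genes (2.86 to 4.92) and 13.6% for genes outside IGHV1 (12.4 to 14.9). The contigs were counted in all barcodes, and the productive cells are those defined above. For genes outside IGHV1 these cells include the largest lineages. As background, a cell whose first joint fails can join the other allele. Of the 167 contigs, 105 shared a barcode with a productive heavy chain. Contigs not flagged productive made up 29.7% in the 14 members with under 20 cells and 5.24% in the other 27. The genes were parted here by productive cells, which also count in the share. A higher share in the 14 thus follows in part from the split, and the values are a description. IGHV1-56 had 12 such contigs against 3 productive cells, IGHV1-11 had 10 against 3, and IGHV1-49, also chosen after its values were seen, had 6 against 6. At the other extreme, IGHV1-50 had 1 against its 62 Cre+ and 40 Cre- cells and IGHV1-81 had 2 against 124.

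**Figure D2:**
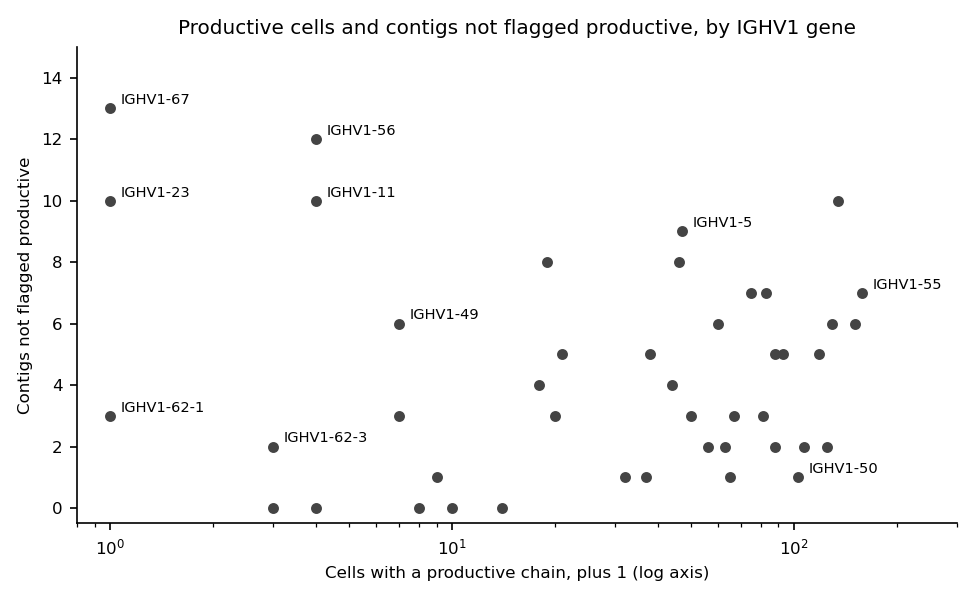
Contigs not flagged productive against cells with a productive chain plus 1 (log axis) for each IGHV1 gene outside the 7, summed over both libraries; each point is a gene. IGHV1-67 (13 contigs) and IGHV1-23 (10) sit at the left edge with 0 productive cells, and IGHV1-56 (12) and IGHV1-11 (10) lie as high as, or higher than, genes with far more cells.

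Most member cells were unswitched. IgM was found in 62.6% of Cre+ and 60.4% of Cre- member cells with a constant gene called, and IgD in 29.5% and 29.99%. IgA, the class secreted into the gut, was found in 51 Cre+ cells (4.12%, 3.08 to 5.38) and 54 Cre- cells (5.42%, 4.09 to 7.01). IgG was found in 47 (3.79%, 2.80 to 5.01) and 42 (4.21%, 3.05 to 5.65), of which 39 and 32 were IgG2b and 7 and 10 were IgG1. In all, 7.91% of Cre+ (6.47 to 9.55) and 9.63% of Cre- member cells (7.87 to 11.6) were switched, a difference of -1.72 points (-4.19 to 0.690).

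Of the Cre+ cells of the 7 other IGHV1 genes 13.4% were switched, a difference from the members of -5.53 points (-8.48 to -2.70). These genes were set apart with such results known, so the difference is a description. Without IGHV1-9 and IGHV1-12, an alternative added after the data were seen, the others stood at 8.65% and the difference was -0.744 points (-3.62 to 1.91). When a lineage counted as 1 cell per isotype class, it was -1.15 points (-3.79 to 1.33). In the Cre- library the 7 genes stood at 10.5%, a difference of -0.861 (-4.17 to 2.26). Genes outside IGHV1 stood at 9.02% and 10.5% without the largest lineages, and both intervals of the difference from the members included 0.

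Along the locus, the switched share differed most between libraries in gene numbers 41 to 60, where 29 of 426 were switched in Cre+ (6.81%, 4.61 to 9.63) against 42 of 339 in Cre- cells (12.4%, 9.08 to 16.4). Those intervals overlapped by little, from 9.08 to 9.63%, which does not by itself place the difference within counting error. The interval of the difference in switched share was not computed for the stretches. This stretch was picked for its difference, so its values are a description. The switched shares were 7.59% and 10.1% in numbers 1 to 20, 13.0% and 7.78% in numbers 21 to 40, and 7.81% and 7.52% from 61 up. No order of the stretches was shared by the libraries.

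Among the 27 members with 20 or more cells, IGHV1-19 stood highest, with 19 of 73 cells switched (26.0%, 16.5 to 37.6). It was followed by IGHV1-62-2 with 6 of 37 (16.2%, 6.19 to 32.0) and IGHV1-22 with 12 of 86 (13.95%, 7.42 to 23.1). The median over the 27 was 8.47%, and it was 9.09% over all 64 such IGHV genes. The genes were ranked by this value, so their ranks are a description.

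Among the 5 genes highest in switched share, the split between IgA and IgG rested on 6 to 19 switched cells per gene. It is a description. Over all members, IgA was found in 51 Cre+ and 54 Cre- cells, and IgG in 47 and 42. IGHV1-19 was switched to IgA in 18 of its 19 switched cells, and IGHV1-22 in 8 of 12. IGHV1-62-2 was IgG in 5 of 6 and IGHV1-59 in 6 of 7. IGHV1-55 had 9 IgA and 10 IgG cells among 157. Of the IgG cells of IGHV1-62-2, 3 came from the Cre+ and 2 from the Cre- library, and of those of IGHV1-59, 4 and 2. The intervals of the switched shares of IGHV1-62-2, IGHV1-22, IGHV1-55 and IGHV1-59 all included the median of the members. That of IGHV1-19, ranked first by this same value, lay above it.

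The lowest share among the 27 was that of IGHV1-5, with 1 switched cell of 46 (2.17%, 0.0550 to 11.5). It had 0 IgA cells, which allows an IgA share of up to 6.52% (exact bound 7.71%). IGHV1-74 had 2 of 80 (2.50%, 0.304 to 8.74) and IGHV1-15 had 3 of 105 (2.86%, 0.593 to 8.12). For these 3 genes the Cre+ library held 0 switched cells, of 29, 42 and 60. The Cre- library held 1, 2 and 3, of 17, 38 and 45. The Cre+ counts allow shares of up to 10.3%, 7.14% and 5% (exact bounds 11.9%, 8.41% and 5.96%). For each gene the intervals of the libraries overlapped, and the genes were picked for their low share. IGHV1-18 had 6 of 133 (4.51%, 1.67 to 9.56) and IGHV1-77 had 2 of 44 (4.55%, 0.555 to 15.5).

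**Figure D3:**
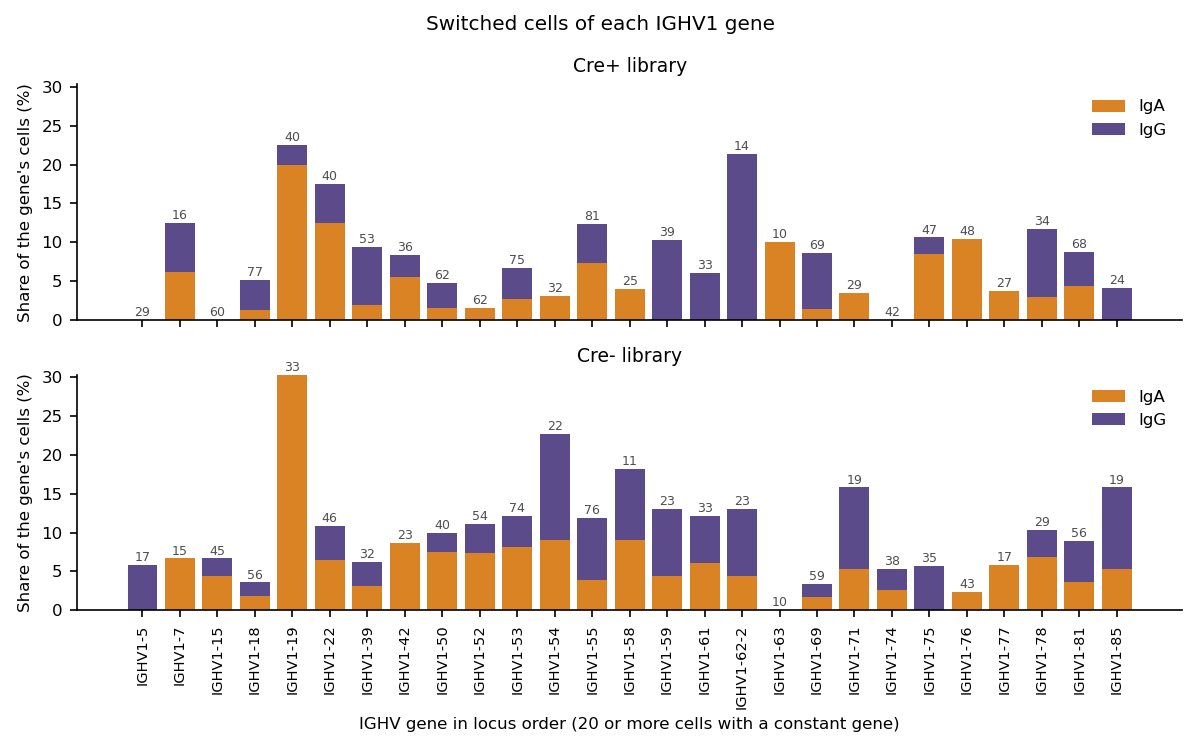
Share (%) of the cells of each gene that were IgA (orange) or IgG (purple), for the 27 genes with 20 or more cells, in locus order, Cre+ above and Cre- below; the figure over each bar is the gene's number of cells with a constant gene. IGHV1-19 has the tallest IgA bars in both libraries, and most other bars rest on a few cells.

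IGHV1-19 was the member with the most IgA cells. Of its 40 Cre+ cells, 8 were IgA (interval 9.05 to 35.6%), and of its 33 Cre- cells, 10 were (30.3%, 15.6 to 48.7). In the other members together it was found in 3.59% (2.61 to 4.80) and 4.56% (3.34 to 6.08). The gene was picked for its high switched share over both libraries, so these values are a description. The cells belonged to 4 Cre+ and 6 Cre- lineages, and when a lineage counted as 1 cell per class 10 of 64 were IgA (15.6%). A lineage here is a set of cells of 1 library with the same V gene, J gene and CDR3 length, joined at 85% or more CDR3 nucleotide identity. The number of lineages depends on this cut. The rule joined 2 Cre+ cells of different light V genes, IGKV6-13 and IGKV14-111. It kept 1 Cre- IGKV6-15 cell apart from a lineage of 2 with IGKV6-15 and a like CDR3.

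Part of these IgA cells joined the same J gene and like light chains. An IGKV6 light chain accompanied 4 of 8 Cre+ and 4 of 10 Cre- IgA cells, and 2 of 31 and 2 of 23 unswitched cells of the same gene. Among IgA cells of all members, IGHV1-19 included, it was found in 10 of 51 Cre+ and 11 of 54 Cre- cells. These are counts of cells, some of which shared a lineage. The pair of IGHJ3 with IGKV6-23 was found in 3 Cre+ and 1 Cre- IgA cells and in 0 unswitched cells of either library. This pattern was seen in the data and then counted. The CDR3s of the IGKV6 cells are shown with the changes from the common start of IGHV1-19 in the first 9 nucleotides, and the differences between cells of a lineage, in capitals.
Cre+ IGHJ3, IGKV6-23: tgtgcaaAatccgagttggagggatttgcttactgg
Cre+ IGHJ3, IGKV6-23, same lineage: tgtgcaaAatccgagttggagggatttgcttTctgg
Cre+ IGHJ3, IGKV6-23: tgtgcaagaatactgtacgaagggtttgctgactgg
Cre- IGHJ3, IGKV6-23: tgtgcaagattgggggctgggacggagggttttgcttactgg
Cre- IGHJ3, IGKV6-15: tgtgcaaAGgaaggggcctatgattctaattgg
Cre- IGHJ3, IGKV6-15: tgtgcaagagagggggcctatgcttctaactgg
Cre- IGHJ3, IGKV6-15, same lineage as the last: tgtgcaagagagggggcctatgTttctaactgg
The first pair carried G8A against the common start and differed from each other by A32T. The eighth, a Cre+ cell, used IGHJ2 and IGKV6-13. The 8 Cre+ cells of IGHV1-19 that were IgA had from 8 to 2268 heavy-chain UMIs, with a median of 73. The 10 Cre- ones had from 2 to 28, with a median of 9.5. These cells came from 4 and 6 lineages, so the values are a description. Switched cells of all members had medians of 12 in Cre+ and 11.5 in Cre-. Unswitched cells of the gene had medians of 8 and 7.

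The only member lineage of 4 or more cells was also of IGHV1-19, in the Cre- library. It held 4 IgA cells with IGHJ1 and IGKV4-72, and each cell had its own CDR3 sequence. Changes against the first sequence are in capitals.
cell A: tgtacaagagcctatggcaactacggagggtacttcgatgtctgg
cell B: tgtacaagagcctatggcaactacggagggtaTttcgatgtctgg
cell C: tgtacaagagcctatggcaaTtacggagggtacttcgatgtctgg
cell D: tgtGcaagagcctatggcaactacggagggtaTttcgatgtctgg
Cells B and D shared C33T, cell C had C21T, and cell D had A4G, which is the base of the common start. Cells A, B and C carried G4A against that start.

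Few member cells lay in lineages of 2 or more. They were 68 Cre+ cells (5.46%, 4.26 to 6.87) in 31 lineages and 53 Cre- cells (5.28%, 3.98 to 6.86) in 24. As a background, 3.13% of Cre+ (2.24 to 4.25) and 3.79% of Cre- member cells (2.69 to 5.16) had a partner by the same rule in the other library, where no cell can share a lineage. In the Cre+ library the 7 other IGHV1 genes stood at 14.47% (12.1 to 17.1), beside a background of 5.03%, while genes outside IGHV1 stood at 7.32% (5.90 to 8.95) without the largest lineages. In the Cre- library these shares were 7.65% (5.61 to 10.1), beside a background of 6.96%, and 6.51% (5.03 to 8.27). For genes outside IGHV1 the background, with the largest lineages counted, was 2.47% in Cre+ and 2.12% in Cre- cells. The 7 genes were set apart with results of these data known, some of them for switched lineages, so their shares are a description.

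Switched member cells lay in lineages more often than unswitched ones. Of unswitched cells, 3.42% of Cre+ (2.44 to 4.64) and 2.89% of Cre- ones (1.89 to 4.20) did so, and of switched cells 29.6% (20.8 to 39.7) and 27.1% (18.5 to 37.1). The light chains of these lineages were also read. All cells of a lineage had the same light V gene in 9 of 15 Cre+ and 10 of 13 Cre- lineages with a switched cell, and in 3 of 16 and 2 of 11 lineages of unswitched cells only. Sequences of 2 lineages show both kinds. In IGHV1-55 of the Cre- library, 3 IgG cells with IGHJ2 and IGKV1-117 differed by A16G and C45T, in capitals.
IgG cell A: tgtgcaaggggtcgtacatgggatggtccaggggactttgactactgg
IgG cell B: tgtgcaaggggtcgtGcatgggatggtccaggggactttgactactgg
IgG cell C: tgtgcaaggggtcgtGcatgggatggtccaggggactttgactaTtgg
In IGHV1-50 of the Cre+ library, 3 unswitched cells with IGHJ2 were joined by the rule across a short CDR3, but had the light chains IGKV4-70, IGKV1-135 and IGKV9-120; differences from the first are in capitals.
IGKV4-70: tgtgcaagacaggggtttgactactgg
IGKV1-135: tgtgcaagacCCggTtttgactactgg
IGKV9-120: tgtgcaagGTaTggTtttgactactgg

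Switched member cells also had a changed CDR3 start more often. A change in the first 9 nucleotides was found in 22.4% of unswitched (240 of 1073, 19.9 to 24.98) and 47.2% of switched Cre+ cells (42 of 89, 36.5 to 58.1), a difference of 24.8 points (13.8 to 36.0). In the Cre- library it was found in 19.9% (168 of 845, 17.2 to 22.7) and 40.9% (38 of 93, 30.8 to 51.5), a difference of 20.98 points (10.5 to 32.0). Trimming at the joint also changes these bases, so the unswitched cells are the background.

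Changes in the first 6 nucleotides, which trimming reaches less often, had a lower background. They occurred in 4.57% of unswitched (3.40 to 5.99) and 31.5% of switched Cre+ cells (22.0 to 42.2), and in 4.50% (3.20 to 6.12) and 17.2% (10.2 to 26.4) of Cre- cells. IgA cells had them in 12 of 46 Cre+ (26.1%, 14.3 to 41.1) and 13 of 53 Cre- cells (24.5%, 13.8 to 38.3), and the intervals overlapped. Among IgG cells the intervals lay apart, with 16 of 43 (37.2%, 22.98 to 53.3) and 3 of 40 (7.50%, 1.57 to 20.4). When a lineage counted as 1 cell per isotype class, IgG stood at 12 of 38 (31.6%, 17.5 to 48.7) and 3 of 35 (8.57%, 1.80 to 23.1). This alternative was added after the data were seen. Its intervals overlapped, while the Cre+ share stayed the higher. An overlap of single intervals does not by itself place a difference within counting error. With the first 9 nucleotides the IgG shares were 51.2% (35.5 to 66.7) and 35.0% (20.6 to 51.7), which also overlapped.

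**Figure D4:**
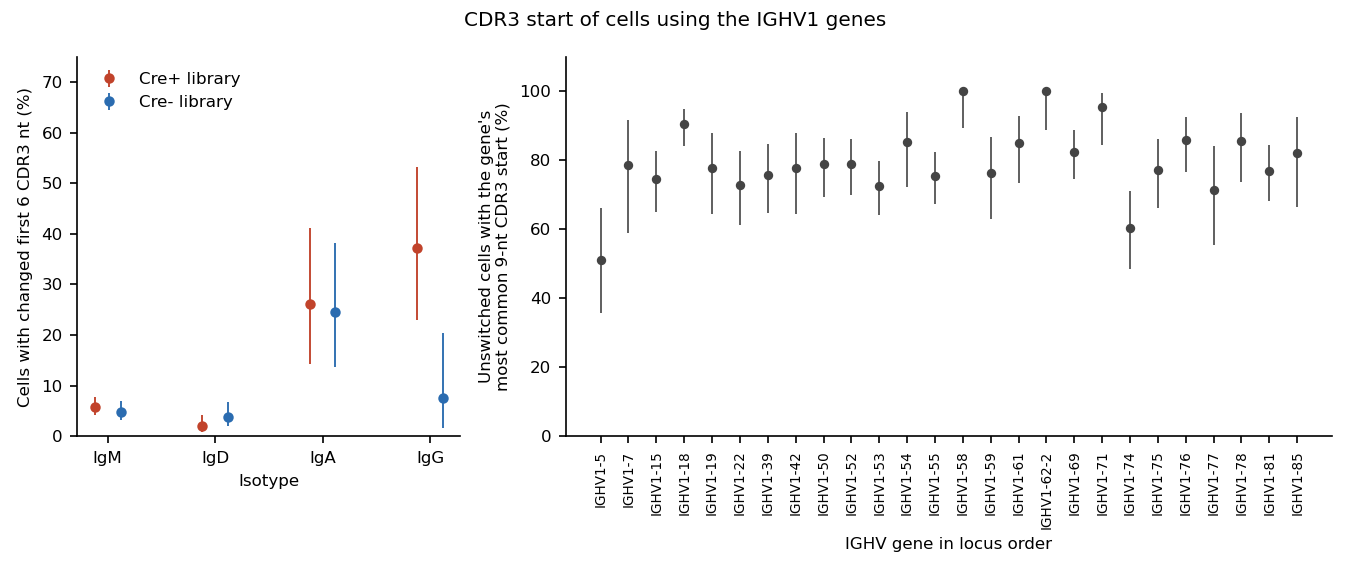
Left, share (%) of member cells with a change in the first 6 CDR3 nucleotides by isotype, in the Cre+ (red) and Cre- (blue) library; right, share (%) of unswitched cells, over both libraries, that had the most common 9-nucleotide start of their gene, for 26 genes in locus order. Bars are exact 95% intervals; IgA stands near 25% in both libraries (26.1% and 24.5%) and IgG at 37.2% and 7.50%, and IGHV1-5 has the lowest intact share at 51.1%.

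The amount of heavy-chain transcript recovered per cell differed among the members. The median heavy-chain UMIs of unswitched cells ranged from 3 in IGHV1-7 to 15 in IGHV1-62-2, a 5-fold range over 26 genes, while the median light-chain UMIs of the same cells ranged from 27 to 42. The order of the genes was shared by the libraries, with a Spearman rho of 0.848 over 26 genes, as a description; both libraries were made with the same kit. IGHV1-62-2 had medians of 19 in Cre+ and 13.5 in Cre- cells, IGHV1-15 had 14 and 13, and IGHV1-7 had 3 and 1.5. They rest on 11 and 20 unswitched cells for IGHV1-62-2, 60 and 42 for IGHV1-15, and 14 and 14 for IGHV1-7. Of the 28 unswitched cells of IGHV1-7, a gene chosen after its values were seen, 11 had under 3 UMIs (39.3%), while IGHV1-15 had 0 such cells. The light-chain median of IGHV1-7 was the highest, at 42. Whether cells of such a gene are lost before a contig is called was not tested.

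**Figure D5:**
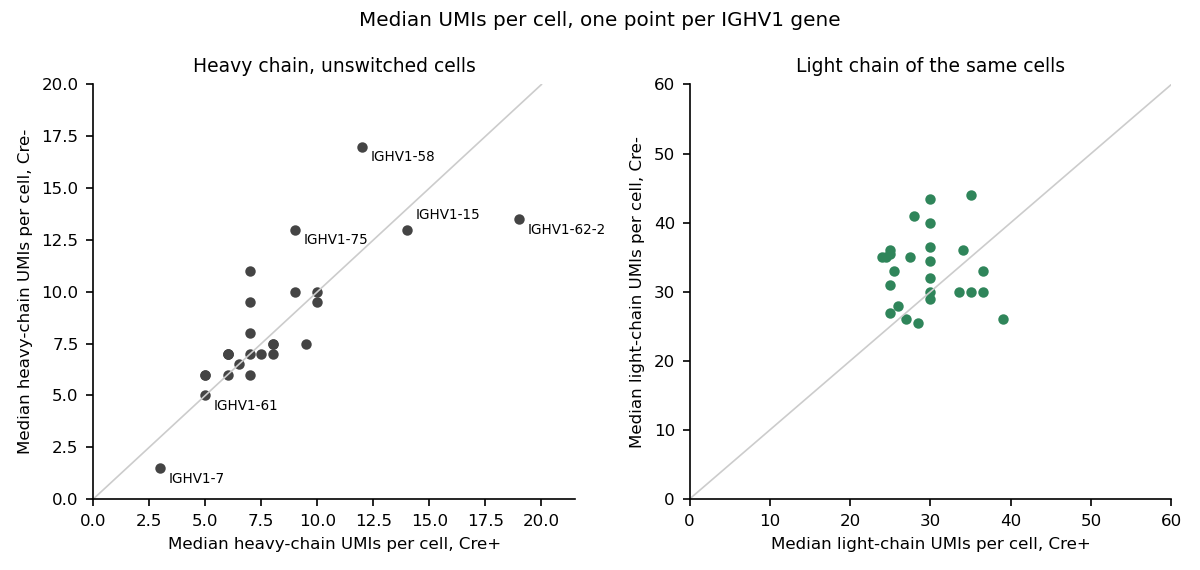
Median UMIs per unswitched cell in the Cre+ (x axis) and Cre- (y axis) library, for the heavy chain (left) and the light chain of the same cells (right), one point per gene for 26 genes; the grey line marks equal medians. Heavy-chain medians spread from IGHV1-7 (3 and 1.5) to IGHV1-62-2 (19 and 13.5), the highest in Cre+, and IGHV1-58 (12 and 17), the highest in Cre-, along the line, whereas light-chain medians form a cloud. The Cre+ median of IGHV1-62-2 rests on 11 cells and the Cre- median of IGHV1-58 on 9.

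As a group, unswitched member cells had medians of 7 Cre+ and 8 Cre- heavy-chain UMIs, as against 10 and 11 for genes outside IGHV1. Their J gene was IGHJ2 in 37.6% (34.8 to 40.5) and 38.96% (35.8 to 42.2), above the 32.0% (29.2 to 34.9) and 30.2% (27.1 to 33.4) of genes outside IGHV1. The intervals lay apart in the Cre- library, and in the Cre+ library they overlapped by little. The 7 other IGHV1 genes stood at 39.97% and 39.6%. Among members IGHJ2 was least used by IGHV1-18, in 20.5% of its unswitched cells, against a median of 39.3% over the 26 genes.

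Lambda light chains were less frequent beside member genes. Of 1134 unswitched Cre+ cells with a light chain, 35 had lambda (3.09%, 2.16 to 4.27), as had 35 of 889 in the Cre- library (3.94%, 2.76 to 5.43). In genes outside IGHV1 they were found in 7.69% (6.17 to 9.44) and 7.26% (5.60 to 9.23), so the intervals lay apart in both libraries. The 7 other IGHV1 genes, at 3.85% and 3.33%, stood near the members. Among switched member cells lambda was found in 0 of 95 Cre+ cells, which allows up to 3.16% (exact bound 3.81%), and 1 of 92 Cre- cells.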

How the data were processed

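B cell receptor transcripts were analysed in 2 libraries, 1 per genotype, each pooled from 4 mice. Cell Ranger and the build GRCm38 are named per the submitters' processing notes, without a version. Per the file headers, the deposited contig tables give each receptor transcript with its genes, CDR3 and the raw count of reads and UMIs. No column was normalised by the authors as far as the headers show. Clonotype tables were not used here.

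Isotype shares left out 7 Cre+ and 6 Cre- member cells without a constant gene. Tables were joined with pandas 2.3.3 and intervals computed with scipy 1.17.1 in Python 3.11.15; the steps were tested on simulated data. Named genes were the 10 with the most cells, those past the usage rule, the 5 highest and 5 lowest in switched share, those of lineages of 4 or more cells, and the first and last by number. Members and lists were chosen with earlier results of these data known. Alternatives were other rules for barcodes, UMIs, lineages and CDR3 starts. Coordinates are those of a RefSeq table of GRCm38.p6. V region and promoter sequences were not used here.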

Additional observations from a re-analysis of the deposited data

How the results depend on the processing

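The difference in the share of cells using the IGHV1 genes turned from 3.79 points to -1.07 without the largest lineages, to -0.665 with every lineage and isotype class weighted as 1 cell and to -0.583 in unswitched cells alone, where the Cre- share was 39.6%, 39.9% and 39.8%. Grouping the genes into 4 sets of near equal number in place of stretches of gene number gave 23.8%, 24.6%, 19.9% and 31.8% of Cre+ and 22.2%, 24.6%, 20.8% and 32.3% of Cre- member cells, as a set then held other genes. The share in lineages of 2 or more was 11.96% and 10.9% at 80% identity, 2.57% and 3.39% at 90%, and 1.28% and 1.69% with identical CDR3s. With the first 6 nucleotides the changed CDR3 starts were 4.57% and 31.5% of unswitched and switched Cre+ cells and 4.50% and 17.2% of Cre- cells. Without IGHV1-9 and IGHV1-12, added after the data were seen, the difference in switched share from the other IGHV1 genes was -0.744 points in Cre+ cells, from -5.53. The other 73 values kept their order or stayed within their intervals, among them the 0 genes past the usage rule under each alternative, including cells of IGHV1 genes as the total, which was added after the data were seen. All 180 values of named genes did so too. No paired analysis was possible because there was 1 library per genotype. Genes with under 20 cells were not set against the usage rule.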

Other observations

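In barcodes left out for holding more than 1 productive heavy chain, member genes made up 106 of 300 Cre+ chains (35.3%, 29.9 to 41.03) and 52 of 167 Cre- chains (31.1%, 24.2 to 38.8). Among kappa chains of unswitched member cells, IGKV10-96 was found in 5.91% of Cre+ (4.59 to 7.48) and 4.45% of Cre- cells (3.17 to 6.06). IGKV1-135 was found in 3.91% (2.85 to 5.24) and 5.15% (3.77 to 6.86), and IGKV6-15 in 4.55% (3.40 to 5.95) and 4.22% (2.97 to 5.79). IGHD1-1 was called in 36.5% and 38.4% of the unswitched member cells with a D gene.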
